A study of Equus caballus with 12 samples.

Results

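ADIPOQ and CEBPA are a pair of genes of the fat cell lineage, and both were present among the 1341 genes that the authors listed as different between cytokine-licensed and naive equine mesenchymal stem cells (MSCs). They were chosen by symbol from that table (2 of 1341 genes), so the values of the licensed against naive comparison chose them and are given here as a description, with no test. In the authors' deposited table they lay on opposite sides. ADIPOQ was listed as higher and CEBPA as lower in licensed cells. The cells were primary bone marrow MSCs of 6 horses, each grown for 72 hours either with the recombinant human cytokines IL-1β at 2 ng/ml and TGF-β2 at 1 ng/ml (licensed) or in standard medium (naive), which gave 6 licensed and 6 naive libraries of polyA-selected RNA paired by horse. Both cultures shared low-glucose DMEM with fetal bovine serum, and no medium that drives fat cell formation is named in the labels. The labels give no breed, age or sex for the horses.

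Fat cells form from stromal precursors through a sequence of transcription factors. CEBPB and CEBPD act early, and PPARG and CEBPA follow and hold each other's expression in the maturing fat cell. C/EBP alpha, the product of CEBPA, is a leucine zipper protein that binds the genes of lipid storage, and it also acts in myeloid blood cells and liver. Adiponectin, the product of ADIPOQ, is a hormone with a C1q-like domain that is secreted mainly by fat cells, is regarded as a marker of mature ones, and is in mouse a target of C/EBP alpha. In mouse bone marrow both genes are also expressed by stromal cells committed to the fat lineage.

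The values are normalized counts, that is, reads per gene divided by 1 size factor per library. The listed genes held 2718393 to 3424328 reads per licensed library and 1672419 to 1844648 per naive library, and how deeply the libraries were sequenced in all is not known. The libraries of horse 1 stood apart over all listed genes. They lay at 23.1 (licensed) and 37.5 (naive) on the second principal component, which carried 10.7% of the variance, while the other 10 libraries lay between -13.5 and 1.32. Of 9 surface marker genes that define or exclude MSCs, 1 (THY1, 11.1%) was in the table, so the others could not be checked. That share is near the 10.2% of all tested genes that the authors listed. None of the 15 myeloid marker genes was listed, and their levels are not analysed here. Neither count says which cells were present.

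ADIPOQ (ENSECAG00000002962) was close to the limit of counting in naive cells and clearly counted in licensed cells. Its lowest, median and highest values were 14.1, 95.2 and 123 normalized counts in licensed libraries, against 1.07, 2.72 and 6.24 in naive libraries. The lowest licensed library was above the highest naive one, so the groups did not overlap. This was also so, with licensed above naive, for 435 genes, which is 32.4% of all 1341 listed genes. Only the 670 genes listed as higher could show it. In either direction the groups were apart for 59.2% of listed genes, so this was common in the table. By horse, the licensed libraries held 14.1 (horse 1), 123 (horse 2), 114 (horse 3), 77.7 (horse 4), 73.0 (horse 5) and 113 (horse 6) normalized counts. The naive libraries held 2.12, 1.07, 5.81, 3.33, 6.24 and 2.07 in the same order of horses. Horse 1 was thus far below the other 5 horses when licensed and within their range when naive.

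These ADIPOQ levels rest on few reads. Its naive values stand for 1 to 6 reads per library and 20 reads over all 6 libraries, while the licensed ones stand for 14 to 126 reads and 544 in all. The exact Poisson 95% interval of the naive library with 1 read, that of horse 2, reached from 0.0271 to 5.97 normalized counts. That of the naive library of horse 5, the highest, reached from 2.29 to 13.6, so the naive horses cannot be ordered at this depth. The licensed library of horse 1 had an interval of 7.73 to 23.7, below the interval of every other licensed library, of which the lowest began at 57.8. Such intervals cover counting error only.

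CEBPA (ENSECAG00000032515) was well counted in every library. Its lowest, median and highest values were 41.9, 159 and 264 normalized counts in licensed libraries, against 881, 1633 and 1794 in naive libraries. The highest licensed library was below the lowest naive one, and the groups were therefore apart in the direction opposite to ADIPOQ. This was also so for 359 genes, 26.8% of all 1341 listed genes, and only the 671 listed as lower could show it. By horse, the licensed libraries held 99.0 (horse 1), 264 (horse 2), 41.9 (horse 3), 137 (horse 4), 187 (horse 5) and 181 (horse 6) normalized counts. The naive libraries held 1794, 1657, 881, 1608, 1749 and 1413 in the same order of horses. Horse 3 was the lowest of the 6 in both conditions. The read numbers were 41 to 270 in licensed and 909 to 1695 in naive libraries. CEBPA was thus still counted in all 6 licensed libraries.

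**Figure D1:**
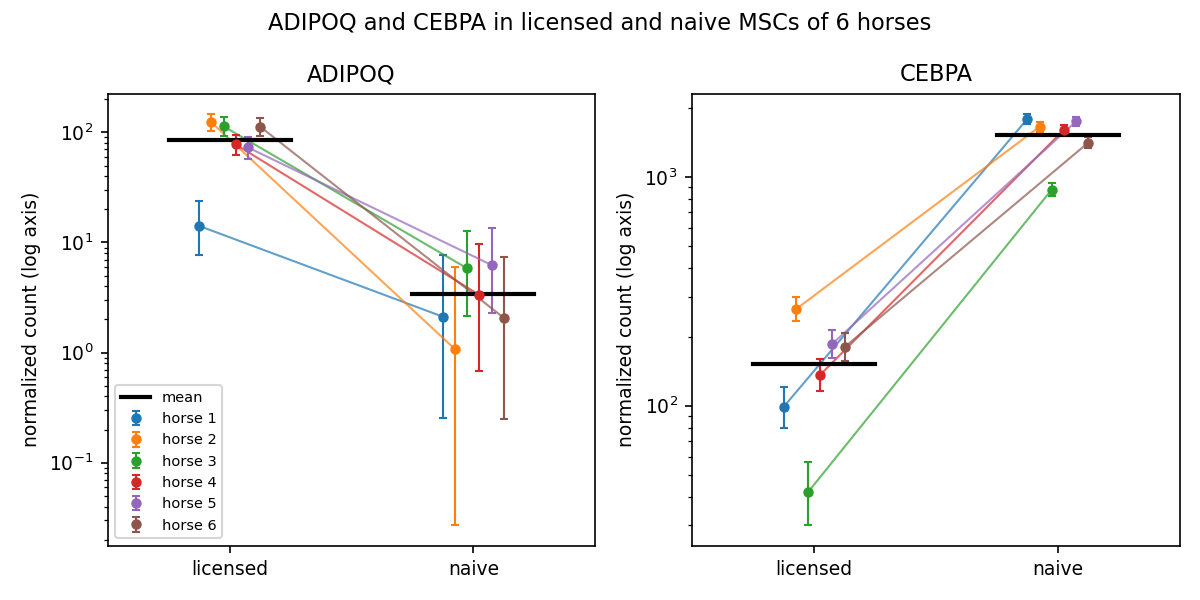
Normalized counts (log axis) of ADIPOQ and CEBPA in licensed and naive MSCs. Points are libraries with their exact Poisson 95% interval, lines join the libraries of 1 horse and black bars are group means. All 6 lines of ADIPOQ run from 14.1 or more in licensed to 6.24 or less in naive libraries, and all 6 lines of CEBPA the other way.

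The means followed the same division. ADIPOQ averaged 85.7 ± 40.6 normalized counts in licensed and 3.44 ± 2.13 in naive libraries (SD, n = 6 horses each). In the authors' deposited table ADIPOQ had a log2 fold change of 4.63 with an adjusted p of 7.88e-15, the 23rd largest of the 670 rises listed there. CEBPA averaged 151 ± 77.1 normalized counts in licensed and 1517 ± 339 in naive libraries (SD, n = 6 horses each). In the authors' deposited table CEBPA had a log2 fold change of -3.32 with an adjusted p of 1.12e-22, the 29th largest of 671 falls. The authors' calls took in 10.2% of the 13183 genes they tested, 5.08% as higher and 5.09% as lower, and since the pair was taken from those calls nothing is read from that share. For comparison, the median deposited log2 fold change was 1.60 over all listed rises and -1.48 over all listed falls. The table begins at an absolute log2 fold change of 1.00 and ends at an adjusted p of 0.0499, so both genes lay far inside it.

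On the scale of log2(normalized count + 1), the licensed minus naive difference was 4.17 ± 0.52 for ADIPOQ and -3.48 ± 0.37 for CEBPA (limma SE, 12 libraries). The added 1 understates the difference for ADIPOQ, because its naive values are of the same order. Without horse 1 the difference was 4.55 for ADIPOQ and -3.35 for CEBPA. In bulk RNA, fewer cells that carry a transcript and less of it per cell cannot be told apart, and this holds for both genes.

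Within horses, the licensed library had more ADIPOQ than the naive one in 6 of 6 pairs. The ratio of licensed to naive was 6.68 in horse 1, with an exact 95% counting interval of 1.53 to 60.5. It was 115 in horse 2 (20.3 to 4581), 19.5 in horse 3 (8.69 to 54.4), 23.3 in horse 4 (7.73 to 115), 11.7 in horse 5 (5.15 to 32.9) and 54.6 in horse 6 (14.8 to 456). The intervals are wide because the naive library of each pair held 1 to 6 reads. All 6 intervals share the range of 20.3 to 32.9. Whether the ratios of single horses differ was not tested, and overlap of intervals cannot show that they are alike. The licensed level of horse 1 could be told from the others.

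For CEBPA the order was reversed and the ratios were precise. The naive library had more CEBPA than the licensed one in 6 of 6 pairs. The ratio of licensed to naive was 0.0476 in horse 3 (interval 0.0339 to 0.0651) and 0.0552 in horse 1 (0.0445 to 0.0676), the strongest reductions. It was 0.0849 in horse 4, 0.107 in horse 5 and 0.128 in horse 6. Horse 2 kept the largest share, 0.159 (0.140 to 0.182). The intervals of horses 1 and 3 overlap each other and lie below those of the remaining 4 horses, so the horses differed in the extent of the reduction by more than counting error.

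**Figure D2:**
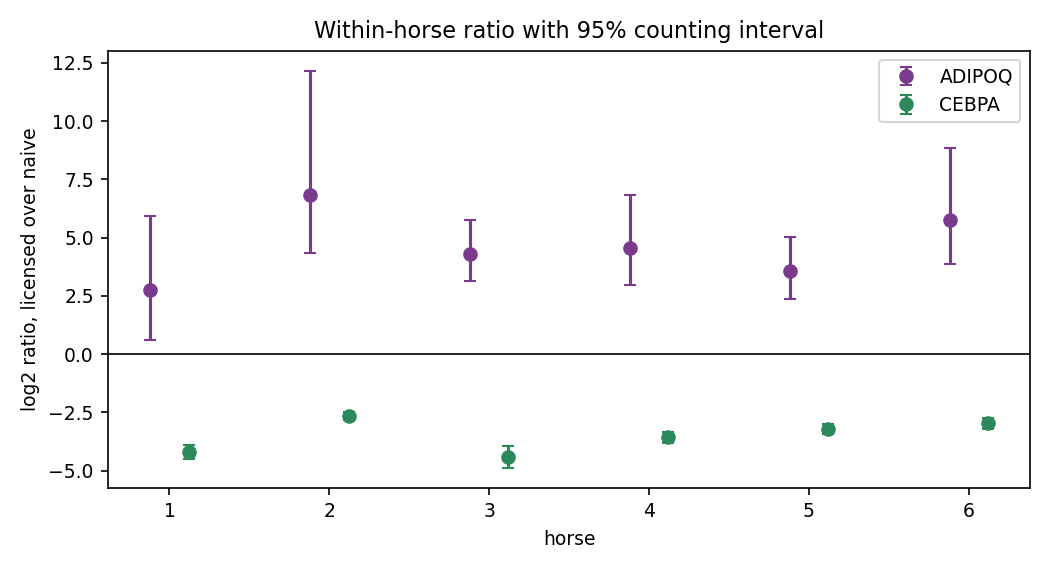
Log2 ratio of the licensed to the naive library of each of the 6 horses for ADIPOQ and CEBPA, with exact 95% counting intervals. Every ADIPOQ interval lies above 0 and every CEBPA interval below it, and the ADIPOQ intervals are wide because the naive libraries held 1 to 6 reads.

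The horses varied more for ADIPOQ than for most listed genes once the cells were licensed. The SD between horses on the log2 scale was 1.15 for ADIPOQ in licensed libraries, against a median of 0.52 over all 1341 listed genes, and 90.5% of listed genes varied less. In naive libraries it was 0.71, against a median of 0.56, but with 1 to 6 ADIPOQ reads per naive library that spread includes counting error. Horse 1 made most of the licensed spread. The highest licensed value was 8.72 times the lowest with all horses and 1.69 times without horse 1. CEBPA varied more between licensed libraries (SD 0.92 on the log2 scale, with 82.7% of listed genes below it) than between naive ones (0.38, with 29.5% below it). Without horse 3, the highest value of CEBPA was 2.67 times the lowest in licensed and 1.27 times in naive libraries, against 6.30 and 2.04 times with all horses.

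Whether the pair followed each other from horse to horse was tested within each condition, which the choice of the genes did not use. Neither relation passed, and the naive one rests on 1 to 6 ADIPOQ reads per library, so its r says little about how the genes relate. In licensed libraries Pearson's r between ADIPOQ and CEBPA on the log2 scale was 0.18 (two-sided exact permutation p = 0.688, adjusted p = 0.917 over 4 relations, n = 6 horses) and Spearman's rho was 0.26 (exact permutation p = 0.658, adjusted p = 0.878). In naive libraries r was -0.43 (exact permutation p = 0.464, adjusted p = 0.917, n = 6 horses) and rho was -0.03 (exact permutation p = 1, adjusted p = 1). Without the 2 horses farthest from the median ADIPOQ level, r was -0.53 in licensed and -0.11 in naive libraries. The smallest p that 6 horses allow is 0.00278, and at this number only a strong relation could have been seen. Leaving out 1 horse reversed the sign in both conditions, horse 1 or 2 among the licensed libraries (r = -0.11 and -0.0003) and horse 3 among the naive ones (r = 0.27). Among the licensed libraries, leaving out horse 3 moved r the other way, to 0.86.

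The level of a horse in naive cells was likewise not shown to carry over to licensed cells. For CEBPA, r between the naive and the licensed level was 0.77 (exact permutation p = 0.114, adjusted p = 0.456, n = 6 horses) and rho was 0.31 (exact permutation p = 0.564, adjusted p = 0.878). This relation rested on horse 3, the lowest in both conditions, and was -0.31 without it. Without the 2 horses farthest from the median naive level, it was -0.41. For ADIPOQ, r was 0.09 (exact permutation p = 0.918, adjusted p = 0.918, n = 6 horses) and rho was -0.43 (exact permutation p = 0.419, adjusted p = 0.878). Without the 2 farthest horses it was -0.24. Given 1 to 6 naive reads, most of the naive order of ADIPOQ is within counting error. The within-horse differences of the pair had r = 0.72 and rho = 0.71 over 6 horses, a description without a test. Horse 2 had both the highest ratio for ADIPOQ and the highest ratio for CEBPA, but its ADIPOQ ratio rests on 1 naive read. The intervals of the ADIPOQ ratios of single horses overlap and differences between them were not tested, so nothing is read from this order.

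**Figure D3:**
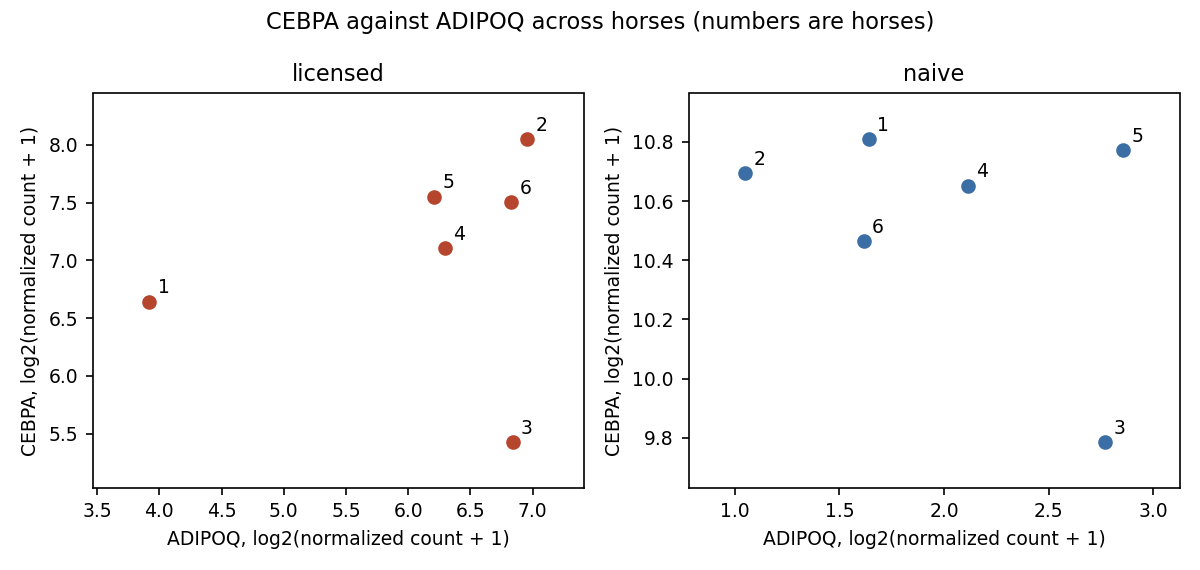
CEBPA against ADIPOQ, both as log2(normalized count + 1), in 6 licensed (left) and 6 naive (right) libraries, with numbers for horses. Horse 1 lies apart on the ADIPOQ axis of the licensed panel and horse 3 on the CEBPA axis of both panels.

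The genes whose variation between horses was most like that of each gene were sought among 919 listed genes, by Pearson's r of the deviations from the condition mean over the 12 libraries. Libraries of 1 horse are not independent, and the highest of 919 values are high in part because they were picked, so r is a description here. For CEBPA the closest were VGLL2, a cofactor of TEAD transcription factors (r = 0.88), THY1, the surface glycoprotein used to define MSCs (r = 0.88), and CASP14, a caspase of cornifying skin (r = 0.86). Horse 3 held the lowest library of all 3 genes in both conditions, as it did for CEBPA. Its THY1 level was 298 normalized counts in the licensed library, against 1232 to 4743 in the other licensed ones, and 4625 in the naive library, against 11451 to 31119 in the other naive ones. Whether the level of THY1 plays a part in that of CEBPA was not tested. Without horse 3, r was 0.46 for VGLL2, 0.59 for THY1 and 0.81 for CASP14. None of the 3 stayed among the 3 closest genes without horse 3, nor without horse 1. In the authors' deposited table THY1 (-2.95) and CASP14 (-2.53) had log2 fold changes of the same sign as CEBPA, and VGLL2 (3.08) had the opposite sign.

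For ADIPOQ the closest were NAPEPLD, an enzyme of N-acylethanolamine synthesis (r = 0.86), MAML3, a coactivator of Notch signalling (r = 0.85), and TUBE1, which encodes epsilon-tubulin (r = 0.82). The naive deviations of ADIPOQ behind these values rest on 1 to 6 reads per library. In licensed libraries horse 1 was the lowest for all 3. NAPEPLD was at 72.7 normalized counts there, against 127 to 192 in the other licensed libraries. Without horse 1, r was 0.49 for NAPEPLD, 0.59 for MAML3 and 0.65 for TUBE1, and none of the 3 stayed among the 3 closest genes. In the authors' deposited table NAPEPLD (-1.77) and MAML3 (-1.29) were listed as lower in licensed cells and TUBE1 (1.02) as higher.

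**Figure D4:**
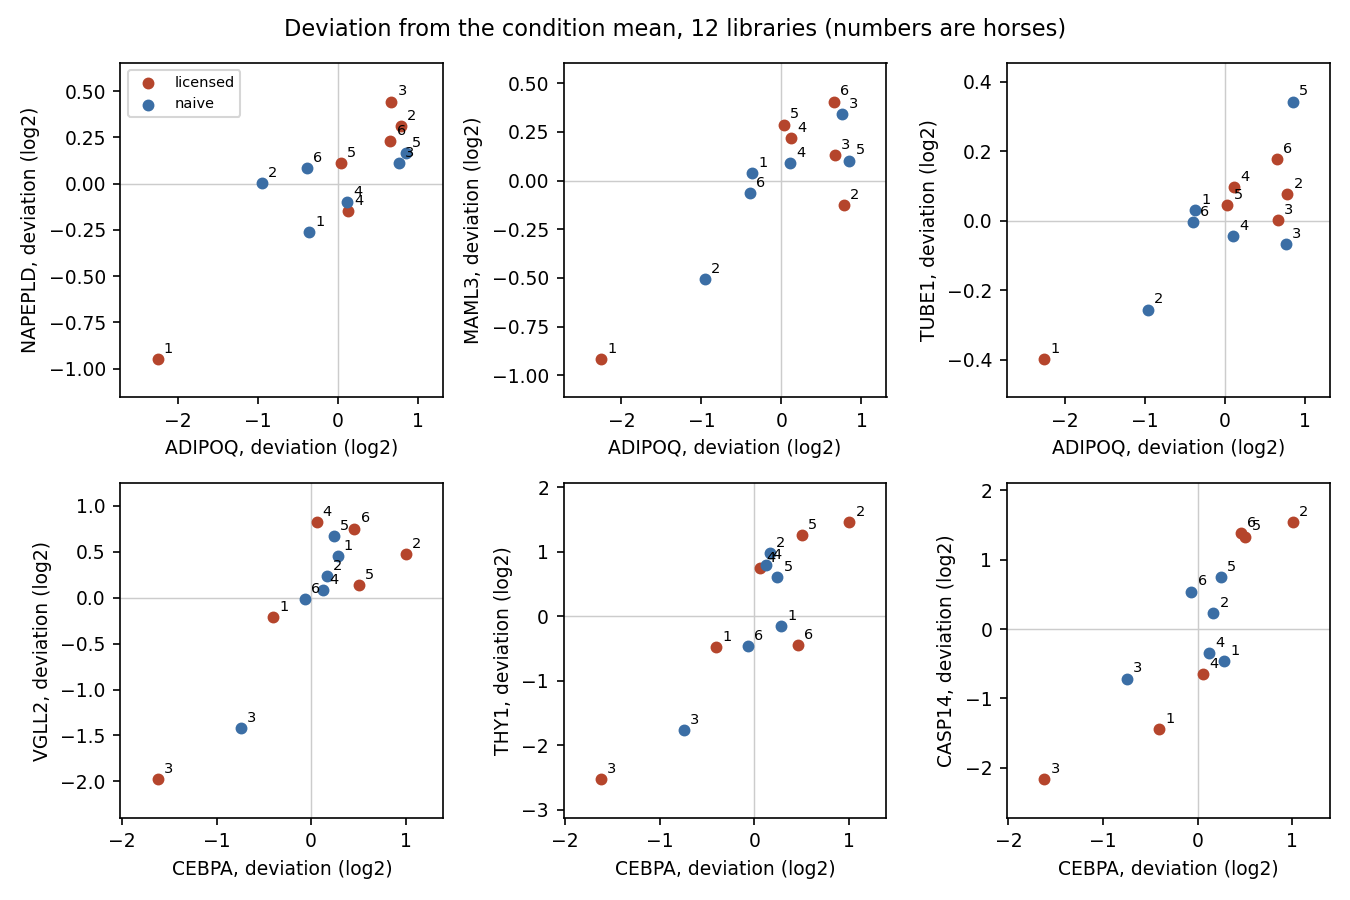
Deviation from the condition mean on the log2 scale of the 3 genes most like ADIPOQ (top) and CEBPA (bottom), against the deviation of that gene, in 6 licensed and 6 naive libraries, with numbers for horses. The licensed library of horse 1 is the lowest on both axes of each top panel, and the licensed library of horse 3 of each bottom panel.

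Other genes of the lineage were counted by lists, against the 10.2% of tested genes that the authors listed. A gene that is not in the table may have been untested or may not have passed, and which of these applies is not analysed here. Of 22 transcription factors with a role in fat cell formation, 7 (31.8%) were in the table, 2 as higher and 5 as lower, with CEBPA the largest change. CEBPA is 1 of the 7 and was in the table by choice, which raises this share. PPARG and CEBPB were not in the table. CEBPD, which acts early in fat cell formation, stood opposite to CEBPA. Its lowest, median and highest values were 577, 925 and 1310 normalized counts in licensed libraries, against 66.6, 163 and 231 in naive libraries, and the authors' deposited table gives a log2 fold change of 2.55. CEBPA and CEBPD were the 2 of 6 C/EBP family genes that were listed. EBF2, a factor of fat precursors, had a log2 fold change of -2.15 in the authors' deposited table, and KLF15, a late factor, of -1.78 with 5 of 6 horses lower. Both had low counts. EBF2 averaged 13.1 normalized counts in licensed and 57.9 in naive libraries. KLF15 averaged 4.70 in licensed and 16.0 in naive libraries, and its groups overlapped.

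Genes of adipocyte products and lipid storage were seldom listed, and the direction of those not listed is not known. Of 43 genes of adipocyte products and lipid storage, 5 (11.6%, near the background) were in the table, ADIPOQ as higher and 4 as lower. FABP4, the fatty acid carrier of fat cells, averaged 15.9 ± 4.84 normalized counts in licensed and 49.4 ± 18.8 in naive libraries (SD, n = 6 horses each). MGLL, which releases fatty acids from monoglycerides, averaged 399 ± 307 in licensed and 1556 ± 982 in naive libraries. The licensed and naive groups overlapped for FABP4 and for MGLL. CAV1, which forms caveolae, averaged 4248 ± 1227 in licensed and 9605 ± 2142 in naive libraries. LEP, LPL, PLIN1, CFD and SLC2A4 were on the list and not in the table.

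The partners of adiponectin gave 3 of 21 listed genes (14.3%). PRKAG3, a regulatory subunit of AMP-activated kinase, which acts downstream of the adiponectin receptors, averaged 448 ± 105 normalized counts in licensed and 18.5 ± 10.4 in naive libraries (SD, n = 6 horses each). CDH13, the T-cadherin that binds adiponectin at the cell surface, averaged 759 ± 320 in licensed and 2407 ± 1075 in naive libraries. GSTK1, known in mouse and human to take part in adiponectin assembly, averaged 57.1 ± 18.1 in licensed and 173 ± 57.5 in naive libraries. The receptor genes ADIPOR1 and ADIPOR2 were not in the table. Of 21 C1q and TNF related genes, relatives of adiponectin, 2 were listed (9.52%), C1QTNF6 as higher and C1QTNF12 as lower (log2 fold changes of 2.24 and -2.32 in the authors' deposited table). C1QTNF12 had low counts, on average 10.3 in licensed and 51.5 in naive libraries, and its groups overlapped.

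Restraints of fat cell formation divided evenly, with 4 of 27 listed (14.8%), the Wnt ligand gene WNT5A and the Notch target HES1 as higher and TWIST1 and SOX9 as lower. Of 20 markers of marrow stroma with a fat lineage bias, 4 were listed (20.0%), namely ADIPOQ as higher and CEBPA, ANGPT1 and GAS6 as lower. Of these 4, 2 are the chosen genes, which were in the table by choice and raise this share. Over all lists, 24 of 176 distinct genes were in the table (13.6%), 7 as higher and 17 as lower, against 670 and 671 in the whole table. The counts past limma's thresholds depend on the scaling. After rescaling over the listed genes limma called 460 higher and 661 lower, against 649 and 627 with the deposited size factors. The lists hold both chosen genes, which raise the shares of the lists they are in, and the lists were not tested. None of the 24, and none of all 1341 listed genes, turned direction when the libraries were rescaled over the listed genes. That outcome was nearly fixed in advance, so nothing is read from it. The table begins at an absolute log2 fold change of 1.00, and the rescaling moved the median difference by only -0.26.

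**Figure D5:**
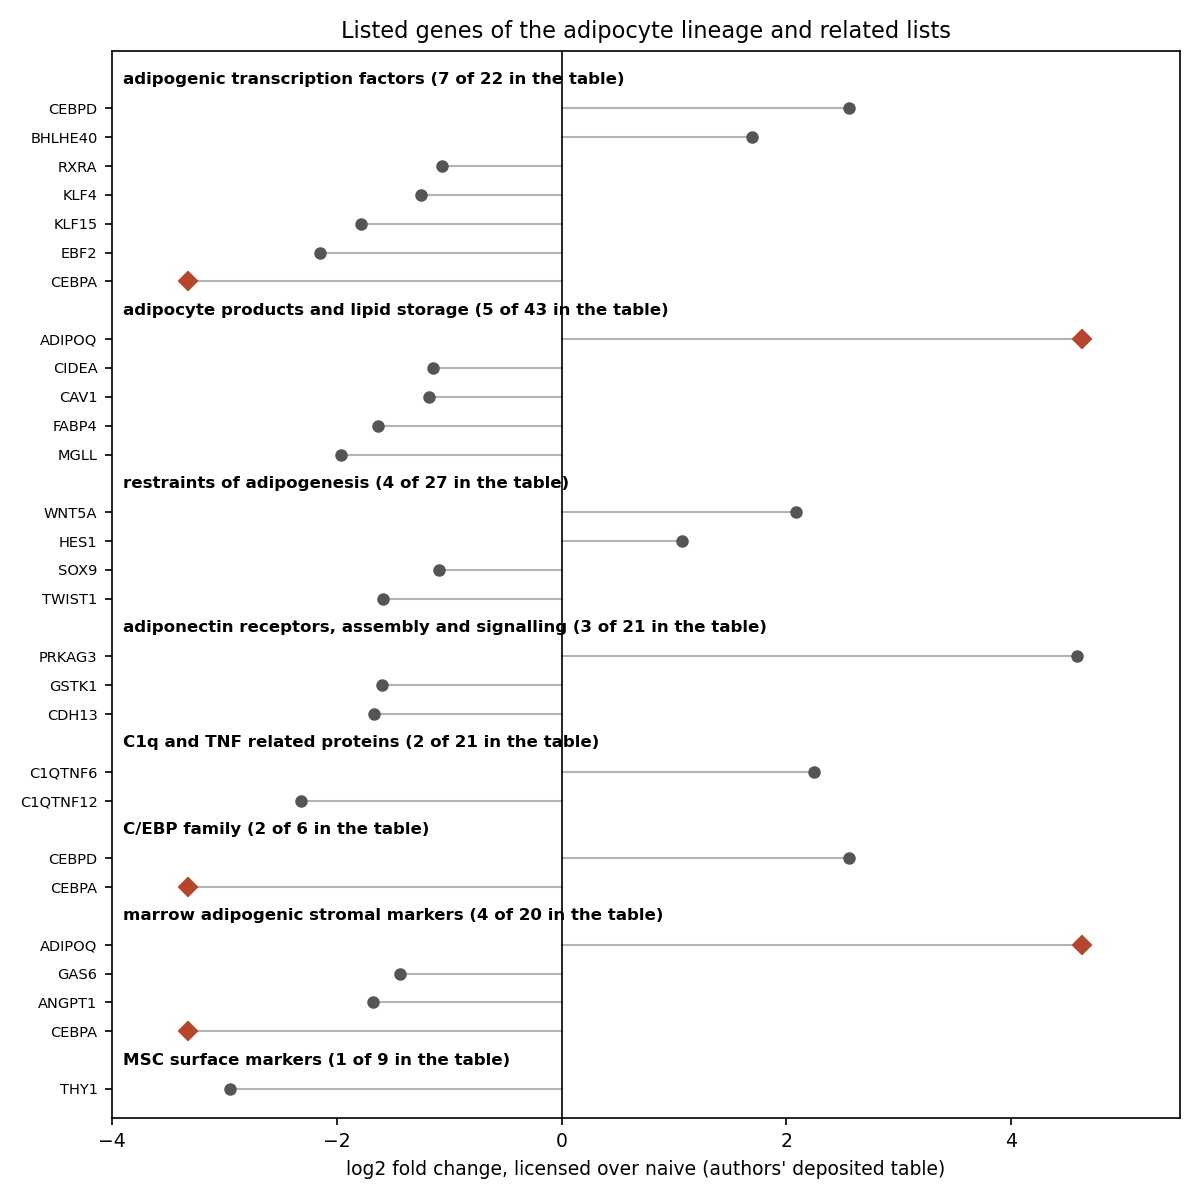
Log2 fold change of licensed over naive in the authors' deposited table, for every listed gene of the lineage lists, with ADIPOQ and CEBPA as red diamonds. ADIPOQ lies at 4.63, apart from the other listed genes of adipocyte products and lipid storage, and CEBPA at -3.32, opposite CEBPD at 2.55.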

How the data were processed

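The submitters' processing notes name Trimmomatic 0.36, STAR 2.5.2b, Subread 1.5.2 with its counter featureCounts, and DESeq2. Build, annotation and strand setting were not given in the sources used here, so reads of overlapping antisense genes cannot be told apart. The table deposited by the authors holds a log2 fold change, a p-value and an adjusted p-value per gene, and a signal per library (reads divided by a size factor). All values (100%) of each library were multiples of a single step, to within 0.01 reads, and division by it gave the reads back. In the licensed library of horse 1 that step lies near 1, so edgeR was also run without horse 1. The number of genes tested, 13183, was inferred from the ratio of adjusted p to p.

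Standard errors came from limma 3.58.1 in R 4.3.3, run on log2(normalized count + 1) for all 1341 listed genes, and the model held no horse effect. After Benjamini-Hochberg adjustment limma called 1276 genes at an adjusted p of 0.05 and 2-fold, while on recovered reads edgeR 4.0.16 called 1340 and DESeq2 1.42.0 called 1341. The fits held only genes that the authors had already called in the same libraries. Such counts repeat that selection and are no check of it. Pairs come from the same horse, and their deviations from the condition means correlated at 0.48 to 0.63. The fits were tested on simulated data. Alternatives were pseudocounts of 0.5 and 5, the horse as a block, a mean of at least 10, rescaling over listed genes and leaving out each horse. Relations between horses were tested by exact permutation.

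The genes and lists were chosen with earlier results of these data known. Named are both chosen genes, up to 4 listed genes per list by deposited change, and for each chosen gene the 3 most alike genes with a symbol and a mean of at least 50 normalized counts in the higher condition. BHLHE40, KLF4, RXRA and CIDEA appear in a plot only.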

Additional observations from a re-analysis of the deposited data

Results flagged for a closer look

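On the log2 scale, 2 of 6 sets of values looked at for ADIPOQ and CEBPA (licensed, naive and within-horse difference of each gene) held a library far from the others, where chance flags about 1 in 20 groups. The licensed library of horse 1 had 14.1 normalized counts of ADIPOQ, and its gap to the next licensed library was 0.75 of the whole range, above Dixon's critical value for 6 values. The naive library of horse 3 had 881 normalized counts of CEBPA, with a gap of 0.66 of the range. On the scale of normalized counts themselves the gaps were 0.54 and 0.58 and stayed below the critical value. Without the outlying horse, the ratio of group means, licensed over naive, was 27.0 for ADIPOQ (24.9 with all horses) and 0.105 for CEBPA (0.0998 with all horses).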

How the results depend on the processing

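The differences of ADIPOQ and CEBPA kept their direction, and moved by less than the SD between horses, in all 14 alternatives. Both genes were chosen from the authors' calls and their groups did not overlap, so a reversal of direction could hardly occur. Nothing is read from the kept direction. The counts of genes past limma's thresholds likewise repeat a selection already made. Leaving out each horse in turn gave 3.82 to 4.55 for ADIPOQ, -3.65 to -3.31 for CEBPA and 1193 to 1226 genes past limma's thresholds. With the horse as a block, the SE was 0.44 for ADIPOQ and 0.22 for CEBPA, the differences were the same by construction, and 1296 genes passed. Rescaling over the listed genes moved the median difference by -0.26 (log2) and gave 3.95 for ADIPOQ and -3.74 for CEBPA. A pseudocount of 5 gave 3.24 for ADIPOQ. Correlations across horses ranged, leaving out each horse in turn, from -0.11 to 0.86 between the pair in licensed, from -0.79 to 0.27 between the pair in naive, from -0.59 to 0.44 between naive and licensed ADIPOQ, and from -0.31 to 0.92 between naive and licensed CEBPA. The sign reversed without horse 1 (-0.11) or 2 (-0.0003) for the pair in licensed, without horse 3 (0.27) in naive, without horse 1 (-0.59) or 3 (-0.07) for ADIPOQ and without horse 3 (-0.31) for CEBPA. The cause was not tested. The naive libraries alone gave r = 0.49 for ADIPOQ with NAPEPLD, 0.98 for CEBPA with VGLL2 and 0.48 for CEBPA with CASP14. VGLL2 was low there, at 6.78 (horse 3) to 32.2 normalized counts, and ADIPOQ held 1 to 6 reads per naive library. None of the 3 genes closest to ADIPOQ and 1 of those closest to CEBPA were still among the closest there. The alternatives that leave out horses for these likenesses, both relations of naive with licensed level and edgeR without horse 1 were added after seeing the data. Depth limits the naive values of ADIPOQ.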
